A study of Mus musculus with 3 samples.

Results

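Microtubule-associated proteins (MAPs) bind the microtubules of a cell and stabilise, space or bundle them, whereas stathmins bind free tubulin and destabilise microtubules. Neurons make large amounts of both, and MAPs differ between axons and dendrites and between young and mature neurons. The 10 genes described here were listed by name as members of these families and not by a measured threshold, although earlier results of these data were known when the list was made: Map1a, Map1b, Map2, Map4, Mapt, Dcx, Dclk1, Stmn1, Stmn2 and Stmn3. All 10 were found among the 54232 genes of the count files, and all 10 passed the expression filter (a level of at least 1 CPM, the usual scaling of counts to library size, in at least 1 library) that left 13884 genes for comparison.

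The counts came from 3 RNA-seq libraries of wildtype CD1 mouse cortical neurons in culture, 1 per group, and each is repeat 3 of its group. In the IKVAV PA group the neurons met a peptide amphiphile, a peptide that assembles into nanofibres, here carrying the laminin-derived sequence IKVAV. The IKVAV PA + PEDOT-S group had a further component, called PS2 in the title and PEDOT-S_OH in the library name and taken here to be a conducting sulfonated polymer. The PDL control library bears an abbreviation that the labels leave unexplained, and its treatment field names a peptide amphiphile as in the other libraries, so groups follow titles and library names. No age of the animals, time in culture or pooling of cells is given in the sources used here.

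Library totals were 124425958 counts with IKVAV PA alone, 79057998 with PEDOT-S added and 78993105 in the PDL control. Levels below are given in that order of libraries, as CPM scaled by trimmed-mean factors. With 1 library per group no test between groups was possible. Every difference describes these libraries, and 95% intervals cover counting error only, not the variation between cultures. All 20 pan-neuronal genes used to check the cell type passed the filter, with summed levels of 10672, 10660 and 10572 CPM. Markers of other cells were much weaker and uneven between libraries: summed levels were 39.7, 37.5 and 122 CPM for 8 dividing cell markers, 494, 535 and 809 CPM for 8 radial glia markers, 200.1, 198 and 270.2 CPM for 8 astrocyte markers, and 26.3, 13.7 and 57.4 CPM for 6 meningeal fibroblast markers. Oligodendrocyte lineage markers (9 genes) summed to 78.4, 99.0 and 108 CPM, endothelial and mural markers (6 genes) to 34.7, 14.9 and 88.9 CPM, and microglia markers (6 genes, 1 past the filter) to 2.20, 2.25 and 1.59 CPM. No listed marker was at 0 in all 3 libraries, and the part of these cells in the values below was not tested. In such bulk samples, fewer neurons and less RNA per neuron cannot be told apart.

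The 10 genes held many counts in all 3 cultures and lay close together between libraries. Together they held 2.17%, 2.09% and 2.10% of all counts. Map1b, which encodes a heavy MAP of growing axons, had the highest count of any gene in each library. Mapt, which encodes the axonal protein tau, ranked 4 in each, and Dcx, Map2 and Mapt were all within the first 13. Ranks by count favour long genes: per kilobase of exon, among protein-coding genes, Map1b ranked 30, 32 and 30, Mapt 29, 33 and 32, and Stmn1 27, 31 and 28. Map1a ranked 820, 995 and 739 and Map4 995, 1053 and 959 on that scale. The widest difference of any member was that of Map1a, a heavy MAP of mature neurons, whose highest and lowest libraries differed by 18.1%. For the other 9 members the highest library exceeded the lowest by 2.41% (Map4) to 7.52% (Stmn3). Small spans were usual in these data. The median ratio of highest to lowest library was 1.13 over all 13884 genes. It was 1.09 over the 2575 genes with a mean of at least 100 CPM, a level chosen after seeing the data.

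No member lay past the 1.5-fold bound in any comparison. A gene counts as past it when the end of its counting interval nearest to no difference lies beyond 1.5-fold. Of all 13884 genes, 3.96% passed when IKVAV PA was set against PDL, 4.21% when the library with PEDOT-S was set against PDL and 2.35% when the scaffolds were set against each other. At a 1.2-fold bound again no member passed in either direction. The shares of all genes higher and lower by that bound were 2.95% and 6.83% for IKVAV PA against the control, 2.61% and 7.74% for the library with PEDOT-S against the control, and 2.33% and 6.24% for one scaffold against the other. With shares this small, a count of 0 among 10 genes says little that is particular to them.

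**Figure D1:**
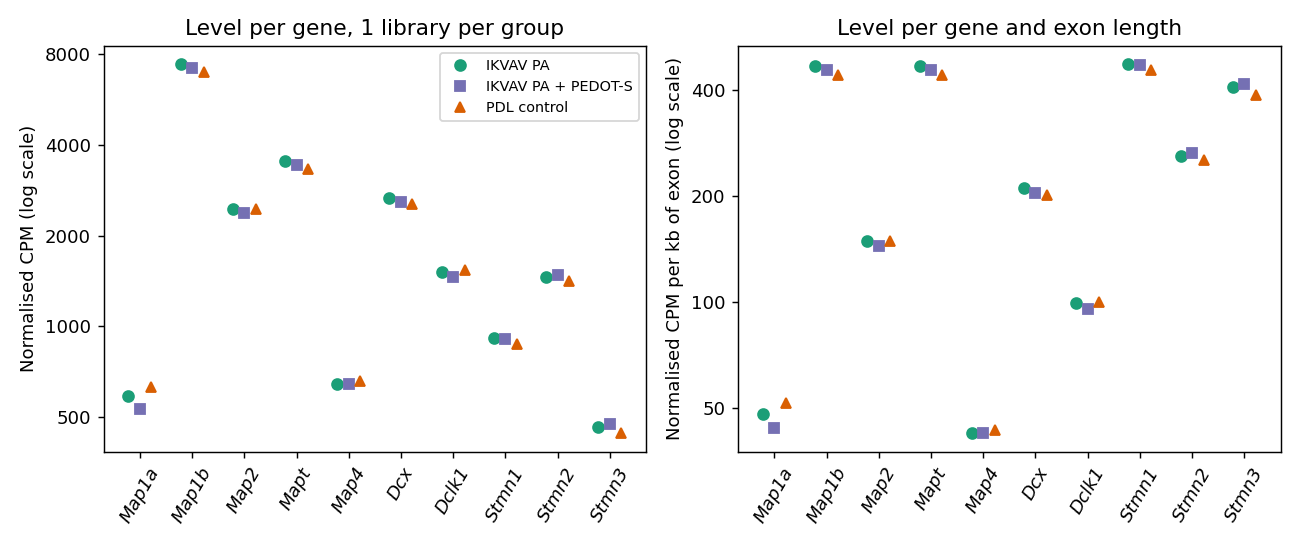
Levels of the 10 genes in the 3 libraries (1 point per library, no replicates), as normalised CPM on the left and as CPM per kilobase of merged exon on the right, both on log axes. Map1b is highest in CPM, and the 3 points of each gene lie close together apart from those of Map1a.

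The heavy MAPs Map1a and Map1b are long proteins, each cut into a heavy and a light chain, that are known for opposite timing: Map1b dominates in growing axons and Map1a in mature neurons. Map1a (ENSMUSG00000027254, chr2:121289600-121310832, plus strand) had 585 CPM in IKVAV PA, 532 in IKVAV PA + PEDOT-S and 628 in the PDL control. The control library was the highest and the library with PEDOT-S the lowest. The log2 ratio was -0.10 (95% counting interval -0.12 to -0.09) for IKVAV PA against the control, -0.24 (-0.26 to -0.22) for the library with PEDOT-S against the control, and -0.14 (-0.16 to -0.12) for PEDOT-S added to IKVAV PA. These amount to differences of -6.85%, -15.3% and -9.10%. Of all 13884 genes compared, 62.4% varied no more than Map1a between their highest and lowest library. Among the 2575 genes with a mean of at least 100 CPM, a level chosen after seeing the data, 89.2% varied less than Map1a.

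Map1b (ENSMUSG00000052727, chr13:99421446-99516540, minus strand) had 7406, 7229 and 6999 CPM. Here the control was the lowest library, the reverse of Map1a. The log2 ratios were 0.08 (0.08 to 0.09), 0.05 (0.04 to 0.05) and -0.03 (-0.04 to -0.03). As a result the ratio of Map1a to Map1b counts within a library, which does not depend on scaling, was 0.0790 in IKVAV PA, 0.0736 in IKVAV PA + PEDOT-S and 0.0898 in the PDL control. It was lower than in the control by a log2 difference of -0.18 (-0.20 to -0.17) in IKVAV PA and of -0.29 (-0.31 to -0.27) in IKVAV PA + PEDOT-S. Of 6 member ratios compared this one differed most from the control library.

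At its 3' end Map1a overlaps Ppip5k1, a gene on the opposite strand, over 2.24% of its exonic bases, and no source used here says whether counting used strand. Ppip5k1 had 25.8, 20.8 and 24.0 CPM, and its counts came to 4.41%, 3.90% and 3.82% of those of Map1a. Its log2 ratio was 0.10 (0.02 to 0.19) for IKVAV PA against the control, opposite in sign to that of Map1a. It was -0.21 (-0.31 to -0.11) for the library with PEDOT-S against the control and -0.31 (-0.40 to -0.23) between the scaffolds, in both of which Map1a was lower too. Its part in the Map1a values was not tested.

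The upstream bases of both heavy MAP genes are shown because their levels differed from the control in opposite directions. Between the scaffolds both were lower with PEDOT-S, and a part of these bases in the levels was not tested. They are the 250 bases before the RefSeq start site, 5′ to 3′ on the gene's strand (GRCm38.p6), for Map1a at chr2:121289352-121289601 (plus strand) and for Map1b at chr13:99516603-99516852 (minus strand). Capitals mark matches on either strand to the TATA box (TATAAA), the CCAAT box (CCAAT), the GC box (GGGCGG), the E-box (CACGTG) or the cAMP response element (TGACGTCA).
Map1a: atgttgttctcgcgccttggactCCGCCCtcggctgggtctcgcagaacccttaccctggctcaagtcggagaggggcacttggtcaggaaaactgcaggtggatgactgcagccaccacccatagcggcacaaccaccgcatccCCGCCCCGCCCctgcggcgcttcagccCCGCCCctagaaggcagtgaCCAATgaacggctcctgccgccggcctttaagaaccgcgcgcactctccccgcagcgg
Map1b: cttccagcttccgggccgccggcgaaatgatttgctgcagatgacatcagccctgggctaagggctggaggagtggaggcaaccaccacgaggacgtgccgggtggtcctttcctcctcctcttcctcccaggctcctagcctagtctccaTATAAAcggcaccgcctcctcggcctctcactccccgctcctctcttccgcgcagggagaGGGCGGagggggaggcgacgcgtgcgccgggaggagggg
The Map1a stretch held 4 GC boxes, all on the opposite strand and 2 of them overlapping, and 1 CCAAT box. The Map1b stretch held 1 TATA box and 1 GC box, and neither stretch held an E-box or the cAMP response element. Of 32851 RefSeq promoter windows of the same length, 32.7% held a GC box, 33.8% a CCAAT box, 12.4% a TATA box, 6.02% an E-box and 1.55% the cAMP response element. G and C made up 66.0% of the Map1a and 66.4% of the Map1b stretch, against a median of 52.4%. Such matches describe letters only. RefSeq windows were found for 7 of the 10 genes.

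The tau family shares a repeat domain that binds along the microtubule. Map2 (ENSMUSG00000015222, chr1:66175273-66442583), the MAP of dendrites and cell bodies, had 2450.2, 2377 and 2447 CPM. The IKVAV PA and control libraries were nearly level, and the library with PEDOT-S was slightly lower. Its log2 ratios were 0.00 (-0.01 to 0.01) for IKVAV PA and -0.04 (-0.05 to -0.03) for IKVAV PA + PEDOT-S against PDL.

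Mapt (ENSMUSG00000018411, chr11:104231390-104332090), the tau gene, had 3538.5, 3432 and 3319.6 CPM, with both scaffold libraries above the control. The log2 ratios against PDL were 0.09 (0.09 to 0.10) and 0.05 (0.04 to 0.06). Map4 (ENSMUSG00000032479, chr9:109931460-110083955), the member of this family that most cell types make, had 641, 641 and 656 CPM. Its 3 libraries were the closest of any member, with log2 ratios against PDL of -0.03 (-0.05 to -0.02) in both scaffold libraries. The ratio of Map2 to Map4 counts was 3.82, 3.71 and 3.73. It lay above the control in IKVAV PA (log2 difference 0.04, 0.02 to 0.05) and not beyond counting error from it in IKVAV PA + PEDOT-S (-0.01, -0.03 to 0.01).

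**Figure D2:**
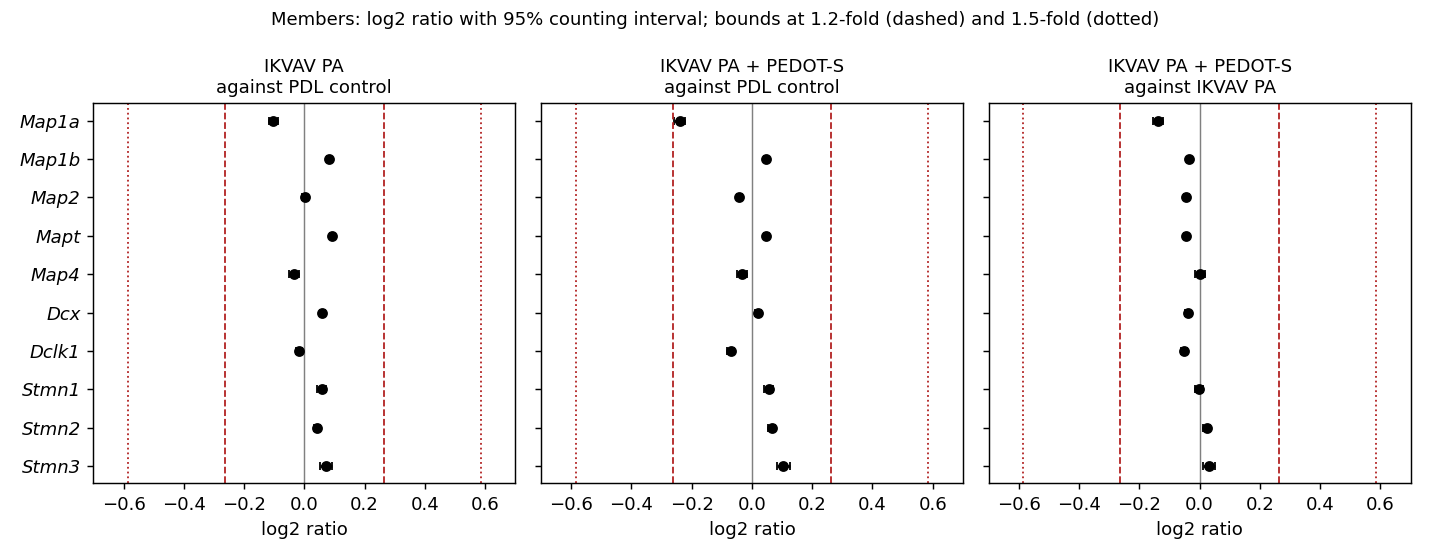
Log2 ratios of the 10 genes in the 3 comparisons with 95% counting intervals (bars), and bounds at 1.2-fold (dashed) and 1.5-fold (dotted). Map1a in IKVAV PA + PEDOT-S against PDL (-0.24) is the point farthest from 0, and every point lies inside the dashed lines.

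Doublecortin, encoded by Dcx, binds between the protofilaments of microtubules in migrating and newly formed neurons, and Dclk1 encodes a related protein with a kinase domain. Dcx (ENSMUSG00000031285, chrX:143855842-143933311) had 2658, 2588 and 2552 CPM. Both scaffold libraries were above the control, by log2 ratios of 0.06 (0.05 to 0.07) and 0.02 (0.01 to 0.03). Dclk1 (ENSMUSG00000027797, chr3:55242364-55539068) had 1515, 1461 and 1533 CPM. For this gene the control was the highest library, with log2 ratios of -0.02 (-0.03 to -0.01) and -0.07 (-0.08 to -0.06).

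Map2 and Mapt accumulate while Dcx declines as neurons mature, so their count ratios to Dcx were compared. The Map2 to Dcx ratio was 0.922, 0.919 and 0.959. It was lower than in the control by log2 differences of -0.06 (-0.07 to -0.05) in IKVAV PA and -0.06 (-0.07 to -0.05) in IKVAV PA + PEDOT-S. The Mapt to Dcx ratio went the other way, at 1.33, 1.33 and 1.30 (log2 differences 0.03, 0.02 to 0.04, and 0.03, 0.02 to 0.04). Between the scaffolds neither ratio differed beyond counting error (both intervals -0.02 to 0.01).

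**Figure D3:**
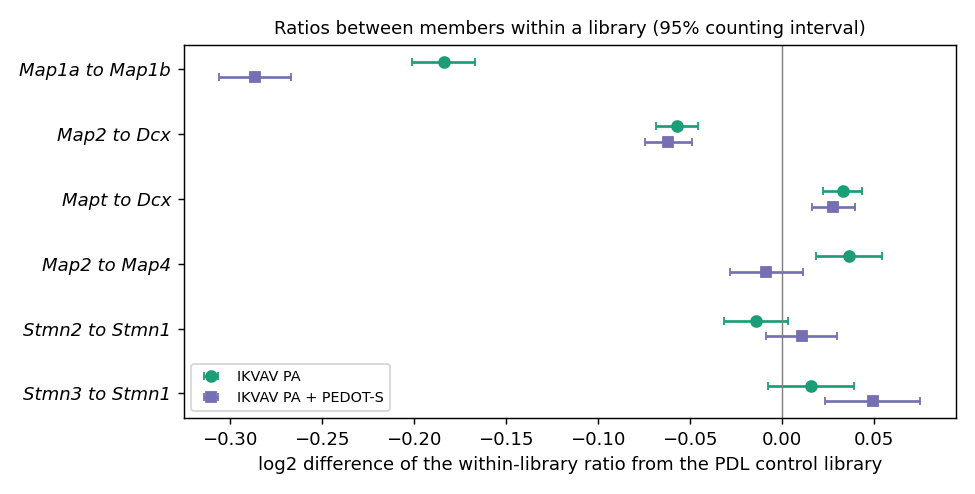
Log2 difference of 6 within-library count ratios from the PDL control library, with 95% counting intervals, for IKVAV PA (circles) and IKVAV PA + PEDOT-S (squares). The Map1a to Map1b ratio stands at -0.18 and -0.29, and the other 5 ratios lie between -0.06 and 0.05.

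Stathmins hold tubulin dimers out of the polymer until phosphorylation releases them. Stmn1, also made by dividing cells, encodes a soluble form, while Stmn2 and Stmn3 encode neuronal forms anchored to membranes. Stmn1 (ENSMUSG00000028832, chr4:134468320-134473843) had 910.2, 909 and 875 CPM. Both scaffold libraries were above the control, with log2 ratios of 0.06 (0.04 to 0.07) and 0.06 (0.04 to 0.07). The dividing cell markers above were lower in both scaffold libraries, and the part of dividing cells in the Stmn1 values was not tested.

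Reads of Stmn1 can be split with Gm11223, a processed pseudogene on the same chromosome whose transcript is 99.8% identical to that of Stmn1 over 450 bases, so the Stmn1 values are uncertain. Gm11223 had 44.7, 47.5 and 42.9 CPM, and its counts equalled 4.91%, 5.22% and 4.90% of those of Stmn1. With both summed, the log2 ratios against PDL were 0.06 and 0.06. Stmn1 also shares 3.43% of its exonic bases with Gm23634, a gene annotated on the same strand. Summing with Gm11223 leaves that overlap as it was, and its part in the Stmn1 values was not tested.

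Stmn2 (ENSMUSG00000027500, chr3:8509360-8561606), known for its role in axon growth and repair, had 1458, 1482 and 1415 CPM. Stmn3 (ENSMUSG00000027581, chr2:181306459-181314500) had 464, 474 and 441 CPM. In both the library with PEDOT-S was highest and the control lowest. The log2 ratios against PDL were 0.04 (0.03 to 0.05) and 0.07 (0.05 to 0.08) for Stmn2, and 0.07 (0.05 to 0.09) and 0.10 (0.08 to 0.13) for Stmn3. Of the 10 members, these stathmins alone exceeded the counting error upward between the scaffolds (0.02, 0.01 to 0.03, and 0.03, 0.01 to 0.05). The Stmn2 to Stmn1 ratio, 1.60, 1.63 and 1.62, did not differ from the control beyond counting error in either scaffold library. The Stmn3 to Stmn1 ratio was 0.509, 0.521 and 0.504, and it exceeded the control beyond counting error with PEDOT-S (log2 difference 0.05, 0.02 to 0.08) but not with IKVAV PA alone (0.02, -0.01 to 0.04). Between the scaffolds that ratio differed by 0.03 (0.01 to 0.06).

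Per kilobase of merged exon, Stmn1 (474, 473 and 455 CPM per kb), Mapt (469.9, 456 and 441) and Map1b (467, 456 and 442) were nearly level, followed by Stmn3 (408, 417 and 388). Stmn2 (260.3, 264 and 253), Dcx (210.2, 205 and 202), Map2 (149, 145 and 149) and Dclk1 (99.0, 95.5 and 100.2) came next, and Map1a (48.1, 43.7 and 51.7) and Map4 (42.3, 42.3 and 43.3) were lowest. This order rests on which exons are counted as the gene's length. With the length of the principal annotated transcript instead, Mapt stood at 2598, 2520.0 and 2437 and Dcx at 1994, 1941 and 1914 CPM per kb, above all other members, since merged exons are far longer than that transcript for both. Map1a (49.5, 45.0 and 53.1), Map4 (130.1, 130.2 and 133) and Dclk1 (190.3, 183 and 193) were the lowest 3 by either length. Gene counts do not separate isoforms, so the embryonic and adult forms of Map2 and tau were not distinguished.

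Between the scaffolds, the library with PEDOT-S was lower for Map2 (-0.04), Mapt (-0.04), Dcx (-0.04, -0.05 to -0.03) and Dclk1 (-0.05, -0.06 to -0.04), as it was for both heavy MAPs. Map4 (0.00, -0.01 to 0.02) and Stmn1 (-0.00, -0.02 to 0.01) did not differ beyond counting error, and the other 2 stathmins were higher, as given above.

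Side by side, 6 members were higher and 3 lower beyond counting error in IKVAV PA against PDL, against 28.0% and 28.9% of all genes. In the library with PEDOT-S 6 were higher and 4 lower than in PDL, against 28.6% and 28.5%, and between the scaffolds 2 were higher and 6 lower, against 31.4% and 28.5%. Members hold far more counts than most genes, so that smaller differences exceed their counting error, and these shares cannot be read against the background. The median log2 ratio of the members was 0.05, 0.03 and -0.04 in these comparisons, and that of all genes 0.00, -0.00 and 0.01. The middle 80% of all genes spanned -0.31 to 0.24, -0.40 to 0.21 and -0.33 to 0.22, which holds every member. The first pair of comparisons shares the control library and the scaffolds' comparison shares a library with each, so the comparisons are not independent. Signs of ratios this close to 0 depend on scaling: Map2 in IKVAV PA and Dcx in IKVAV PA + PEDOT-S turned slightly negative against PDL when total counts alone were used, Map2 also without an expression filter, and Dclk1 in IKVAV PA turned positive when pan-neuronal genes set the scale. Map4 and Stmn1, both within counting error of 0 between the scaffolds, changed sign there under at least 1 other setting.

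Map1a was also low beside neuronal genes outside the family. Against PDL, log2 ratios of the 20 pan-neuronal genes ran from -0.30 (Nefl, a neurofilament subunit) to 0.22 (Rbfox3, the neuronal nuclear protein) in IKVAV PA, and 2 of them lay below Map1a. In IKVAV PA + PEDOT-S they ran from -0.18 (Nefl) to 0.36 (Nefm, another neurofilament subunit), and none lay below Map1a. Between the scaffolds they ran from -0.18 (Syn1) to 0.43 (Nefm), and 1 lay below Map1a. These genes were named as the ends of the ranges after their values were seen.

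Other genes that act on microtubules had list medians from -0.01 to 0.12 against PDL, apart from the mitotic list. In 6 lists (other structural MAPs, plus-end proteins, minus-end and nucleation proteins, severing proteins, tubulin-modifying enzymes, and kinases that phosphorylate MAPs and stathmins with their activators) 92 of 97 genes passed the filter. Their median log2 ratio to PDL was 0.05 with IKVAV PA alone and 0.03 with PEDOT-S added, and the median between the scaffolds was -0.03. No gene of these lists was higher past the 1.5-fold bound in any comparison. Fignl1, a member of the fidgetin family of microtubule-severing enzymes, was lower in IKVAV PA (262 against 302 counts, 2.10 against 3.79 CPM, log2 ratio -0.84, interval -1.10 to -0.61). It was not past the bound in IKVAV PA + PEDOT-S, at 2.16 CPM (-0.81, -1.09 to -0.54).

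At the 1.2-fold bound, 2 of these 92 genes were higher and 1 lower in IKVAV PA against PDL, 3 higher and 2 lower with PEDOT-S against PDL, and 0 higher and 2 lower between the scaffolds. Of all 13884 genes, 2.95% were higher and 6.83% lower in the first comparison, 2.61% and 7.74% in the second, and 2.33% and 6.24% between the scaffolds. Counts near or below such shares say little that is particular to these lists. The list genes past the bound are named here after their values were seen. Ttll11, a tubulin polyglutamylase, was higher in both scaffold libraries, at 13.1, 12.7 and 9.30 CPM (log2 ratios 0.50 and 0.45). Katnal2, of the katanin severing family, was higher in IKVAV PA (0.56), at low levels of 3.72, 2.63 and 2.51 CPM. With PEDOT-S its log2 ratio to PDL was 0.07 (-0.22 to 0.36). Vash2, a tubulin detyrosinase, and Cdk5r2, an activator of the kinase Cdk5, were higher with PEDOT-S (0.36 and 0.31). Fignl1 was lower in both scaffold libraries. Tppp3, which bundles microtubules, was lower with PEDOT-S than in PDL (-0.56) and than in IKVAV PA (-0.66), and Nav2, a plus-end protein, was lower between the scaffolds (-0.32). Some lists leaned above 0 against PDL and are named after their values were seen. The kinases and their activators had a median of 0.12 with PEDOT-S (15 of 19 above 0) and of 0.05 in IKVAV PA (13 of 19). In IKVAV PA, 13 of 17 other structural MAPs (median 0.10), 13 of 16 plus-end proteins (0.04) and 11 of 16 tubulin-modifying enzymes (0.08) lay above 0. With PEDOT-S these were 9 of 17 (0.02), 7 of 16 (-0.01) and 10 of 16 (0.03). The median of all genes was 0.00 and -0.00.

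Some of the other structural MAPs are given here, named after their values were seen. Of the 17 compared, 13 lay above 0 against PDL in IKVAV PA and 9 with PEDOT-S. None of those given passed the 1.2-fold bound. Stmn4, a further neuronal stathmin, had 414, 440 and 429 CPM, and Dclk2, related to Dclk1, had 205, 209 and 182 CPM. Map6, which protects microtubules against cold, had 470.4, 498 and 435 CPM. For Dclk2 and Map6 both scaffold libraries were above the control, with log2 ratios of 0.18 and 0.20 for Dclk2 and 0.11 and 0.19 for Map6. Dclk3, another relative of Dclk1, had 13.47, 12.12 and 10.51 CPM. Its log2 ratio to PDL in IKVAV PA was 0.36, beyond 1.2-fold, but its interval (0.24 to 0.48) reached inside that bound. With PEDOT-S it was 0.21 (0.07 to 0.34). Dcdc2a was below the control, at 2.03, 1.90 and 2.44 CPM. Its log2 ratios were -0.26 (-0.54 to 0.01) and -0.35 (-0.67 to -0.04). Map1s had 69.7, 65.5 and 64.8 CPM, with log2 ratios of 0.10 (0.05 to 0.15) and 0.02 (-0.04 to 0.07).

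Of 12 mitotic microtubule-binding proteins, by contrast, 11 were lower past the 1.5-fold bound in IKVAV PA and 10 in IKVAV PA + PEDOT-S against PDL, with median log2 ratios of -1.07 and -1.06. Between the scaffolds none passed (median 0.01). Kif11, a spindle motor, stood at 5.27, 5.0 and 13.4 CPM, and Hmmr, which binds spindle microtubules, at 1.67, 2.85 and 5.78 CPM. Numa1, a protein of the spindle poles and of the nucleus between divisions, was named after its value was seen: it had 145, 135 and 134 CPM, with log2 ratios of 0.11 and 0.01. Ckap2l did not pass in IKVAV PA + PEDOT-S: its log2 ratio of -0.67 lay beyond 1.5-fold, but its interval (-0.87 to -0.48) reached inside the bound.

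**Figure D4:**
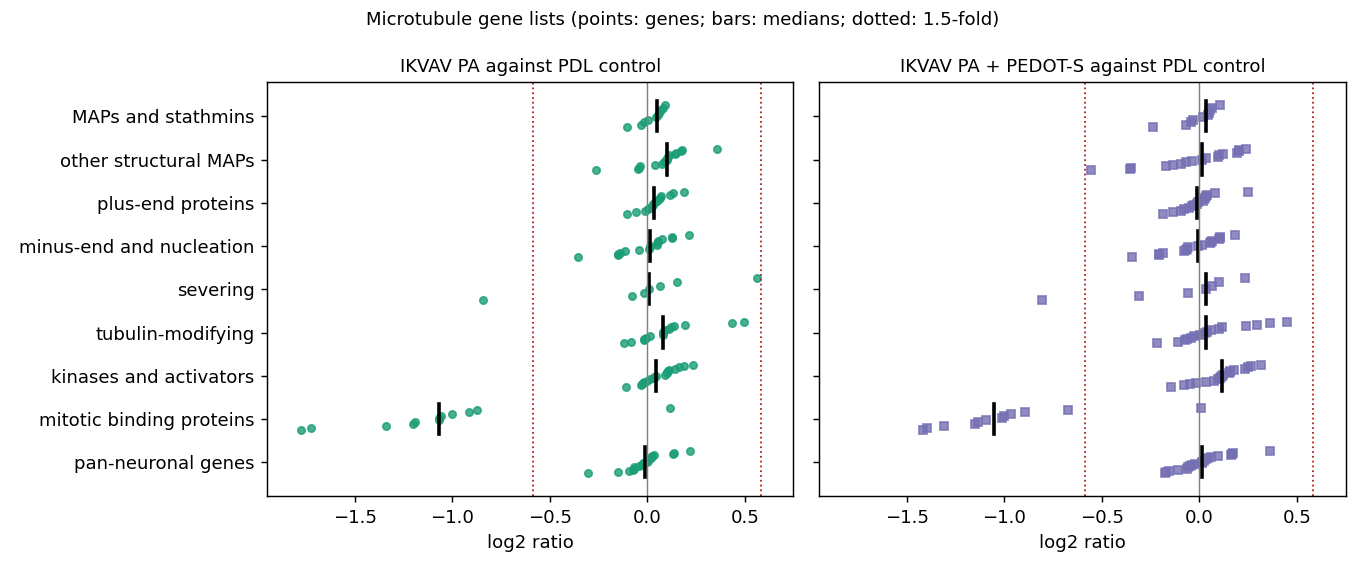
Log2 ratios against the PDL control library of each gene (points) in 9 lists, with medians (black bars) and the 1.5-fold bound (dotted), for IKVAV PA on the left and IKVAV PA + PEDOT-S on the right. MAPs and stathmins gather around 0 with medians of 0.05 and 0.03, while mitotic binding proteins lie apart with medians of -1.07 and -1.06.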

How the data were processed

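Whole-number counts per gene were taken as deposited by the authors for 3 libraries. The submitters' processing notes name, without their roles, DESeq2 1.14.1, HTSeq 2.0.2, STAR 2.7.5 and cutadapt 4.2, with the mm10 build. The sources used here give no annotation release, strand setting or filter. The labels name both polyA RNA and a TruSeq Total RNA kit. GENCODE M21 (GRCm38) gave symbols, positions and merged exon lengths and matched 54165 of 54232 identifiers.

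Counts were scaled with trimmed-mean (TMM) factors (edgeR 4.0.16, R 4.3.3: 1.00, 0.990 and 1.01) and compared for genes with at least 1 CPM in at least 1 library. Each ratio (prior count 2) has an exact Clopper-Pearson 95% counting interval, and differences of within-library ratios have Poisson intervals. Near copies were sought with blastn (at least 95% identity over 100 bases). The calculation was tested on simulated Poisson counts, which hold no variation between cultures. Against PDL, the 1.5-fold bound recovered 0 of 50 genes changed 1.25-fold in either scaffold library. Of 50 changed 1.5-fold it recovered 2 in IKVAV PA and 1 with PEDOT-S. So few at these sizes follow from the rule itself, since the whole interval must lie beyond 1.5-fold. Of 50 changed 2-fold the bound recovered 47 and 45, and of 50 changed 3-fold all 50 in both. Alternatives covered scaling, filters, prior, thinning, protein-coding genes and a 2-fold bound. Summing Stmn1 with its copy was chosen after seeing the data. Named genes are all members and list genes past 1.5-fold (at most 6 per list), besides those said to be chosen otherwise. Members and lists were chosen with earlier results of these data known.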

Additional observations from a re-analysis of the deposited data

How the results depend on the processing

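No member passed the 1.5-fold or 1.2-fold bound under the 8 other settings of scaling, filter, prior, depth or gene class, or with Stmn1 summed with its copy, chosen after seeing the data, and none passed a 2-fold bound. The median log2 ratio of members in IKVAV PA against PDL was 0.0788 with pan-neuronal scaling and 0.0386 without an expression filter. In IKVAV PA + PEDOT-S against PDL it was 0.0070 with total counts alone and 0.0196 with genes at 5 CPM or more. Between the scaffolds it was -0.0536 with total counts, -0.0567 with pan-neuronal scaling, -0.0497 at 5 CPM or more, -0.0187 without a filter and -0.0500 with protein-coding genes. Each stayed on the same side of 0, and these settings alter the scaling factors by construction. Of 30 member ratios, 3 turned sign with total counts, 2 with pan-neuronal scaling, 2 without a filter, 1 each with DESeq2 1.42.0 size factors, at 5 CPM or more, with thinned counts and with protein-coding genes, and none with a prior of 0.5. Map1a kept its sign in all of these. With total counts alone its log2 ratio in IKVAV PA + PEDOT-S against PDL was -0.2664, which lay beyond 1.2-fold. It did not pass that bound because its counting interval reached inside. The count of all genes past 1.5-fold in IKVAV PA against PDL was 550, and 246 at 5 CPM or more, 1338 without a filter and 228 at 2-fold. In IKVAV PA + PEDOT-S against PDL it was 584, then 270, 1325 and 271. Between the scaffolds it was 326, then 120, 1340 and 82, and 187 with protein-coding genes. No paired analysis was possible because each group has 1 library. Depth was not the limit for any member, whose lowest count was 35105.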
